A study of Mus musculus with 6 samples.

Results

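Messenger RNA of the mouse cerebellum at postnatal day 1 was examined for 10 genes that encode enzymes of DNA methylation, of its removal and of EZH histone methylation. These were *Dnmt1*, *Uhrf1*, *Uhrf2*, *Dnmt3a*, *Dnmt3b*, *Tet1*, *Tet2*, *Tet3*, *Ezh1* and *Ezh2*, taken by gene name from the deposited count table. Each name matched 1 row, so they made up 10 of its 54532 genes, and all 10 were among the 17505 genes that passed the filter on low counts. The comparison asked how gene expression depends on Tox3, a high mobility group box transcriptional regulator. The 3 libraries labelled control came from Tox3f/f mice, in which *Tox3* is floxed and no Cre is present. The 3 libraries labelled mutant came from Nestin-cre;Tox3f/f mice, in which a Nestin-driven Cre recombinase deletes the floxed gene in the nervous system, so that cells outside that lineage keep it. The floxed alleles were therefore common to both groups, whereas the Cre transgene was carried by the mutants only, and the transgene and the deletion cannot be told apart. The labels do not say whether the libraries of a group came from separate animals, so the p-values measure only the spread between these libraries.

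DNA methylation in mammals is placed mainly on cytosines that precede guanines. Dnmt3a and Dnmt3b write new marks, and Dnmt1 copies existing marks onto the new strand behind the replication fork, where Uhrf1 recognises the half-methylated sites and recruits it. Tet enzymes oxidise the methyl group, which opens a route to its removal. Ezh1 and Ezh2 are alternative catalytic subunits of Polycomb repressive complex 2 (PRC2), which methylates lysine 27 of histone H3. In neural tissue Uhrf1 and Ezh2 are known as genes of dividing progenitors, and Ezh1, Dnmt3a and Tet3 are also expressed in postmitotic neurons. Granule neuron progenitors (GNPs) are the main dividing cells of the newborn cerebellum.

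Total counts per library lay between 15391854 and 17178478. The count of *Tox3* does not check the labels, since it covers every exon. The value was 64.3, 63.0 and 64.4 CPM in control 1 to 3, where CPM is the count relative to the TMM-scaled size of its library, and 55.3, 63.2 and 59.2 CPM in mutant 1 to 3. *Atoh1*, which specifies GNPs, stood at 32.6, 31.97 and 30.9 CPM against 0.577, 0.261 and 0.249 CPM. Mutant libraries were compared with controls by the quasi-likelihood test of edgeR, with p-values adjusted by Benjamini-Hochberg over all tested genes. A gene was called where this p was under 0.01 and the log2 fold change also passed 0.5 in size. Markers of the labelled tissue were present in the controls, with summed levels of 1119 to 1232 CPM for 8 GNP markers and 1546 to 1623 CPM for 8 Purkinje cell markers. The lists of markers moved with the groups. All 8 GNP markers were called lower in the mutants, as were 6 of 10 granule neuron markers and 17 of 20 cycling cell genes. The summed level of the cycling genes was 2194 to 2349 CPM in the controls and 1284 to 1387 CPM in the mutants. Higher calls were made for 6 of 8 Purkinje cell, 4 of 5 GABAergic interneuron precursor, 5 of 9 astroglial, 6 of 8 oligodendrocyte lineage and 1 of 7 microglial markers (*C1qa*). *Pdgfra*, a marker of oligodendrocyte progenitors, was lower by adjusted p alone (-0.45). No marker of endothelium (8 tested) or erythroid cells (5 tested) was called by edgeR, DESeq2 or limma, and 1 and 0 of them had an unadjusted p under 0.05. Of 6 choroid plexus markers, 1 was called lower (*Otx2*), the other 5 had positive estimates that were not called, and the list median was 0.91. Their summed level ran from 34.996 to 776 CPM among the mutants and from 131 to 199 CPM among the controls. The wide range among the mutants was mainly that of *Ttr*, at 181, 6.06 and 711 CPM in mutant 1 to 3. *Otx2* did not follow *Ttr*, at 24.7, 22.03 and 23.98 CPM in the same libraries. The fall of *Otx2* is therefore not read here as a change of choroid plexus, and its source was not tested. In bulk tissue, fewer cells of a type and less RNA per cell cannot be told apart, and the part of these shifts in the results below was not tested.

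*Uhrf1*, *Dnmt3b* and *Ezh2* were called lower, which is 3 of 10 members, where 3.63% of all tested genes were called lower. None was called higher, where 3.03% of all tested genes were (6.66% in either direction). At an unadjusted p under 0.05 in edgeR, 6 members were lower (19% of all tested genes) and *Dnmt3a* alone was higher (18.2%), and DESeq2 and limma also called 0 higher. By adjusted p alone, *Dnmt1* joined the 3 lower members, making 4 lower (7.24% of all tested genes) and 1 higher, *Dnmt3a* (6.55%). The same 4 and 1 members were those whose 3 mutant libraries did not overlap the 3 controls, a pattern found in 20.1% of all tested genes in the lower and 20.4% in the higher direction (40.5% in all). The estimate was negative in 8 of 10 members, with a median log2 fold change of -0.38 against -0.007 over all tested genes.

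**Figure D1:**
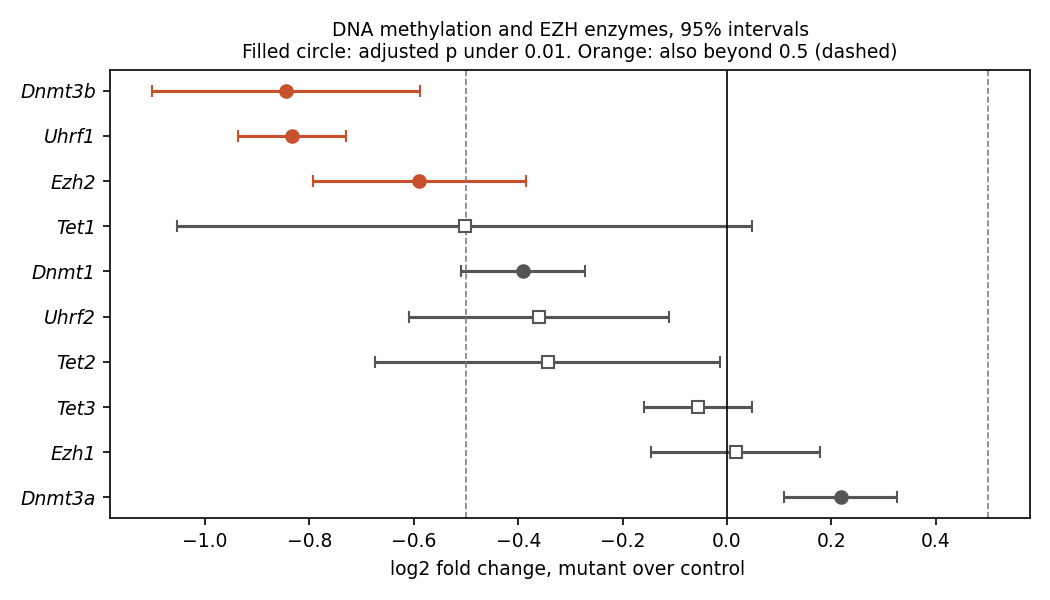
Log2 fold change, mutant over control, of each of the 10 enzymes (x axis) with its 95% interval, ordered by estimate. Filled circles mark an adjusted p under 0.01, and orange marks those also beyond 0.5 (dashed lines), which are Dnmt3b, Uhrf1 and Ezh2. Dnmt1 and Dnmt3a passed the p threshold alone, and Tet1 has the widest interval.

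The promoters of the 3 called genes are shown beside those of 2 paralogs that were not called, *Uhrf2* and *Ezh1*, which moved by different amounts. *Dnmt3a*, the paralog of *Dnmt3b*, was not called either. Its sequence is not printed, and its window is described below with the others. Sequences are the bases before the annotated start in RefSeq on GRCm38.p6, read 5′ to 3′ on the strand of the gene. Where a gene has several starts, the window with the fewest exon bases was taken, a choice made after the windows had been seen. A tie, which arose for *Dnmt1*, went to the window with the most CpG dinucleotides. Capitals mark letters searched for on both strands: GCGCGAA (E2F type), CCAAT (NF-Y type) and TTTGAA (CHR type), each in the orientation found. The windows lie at chr17:56304063-56304312 (plus strand) for *Uhrf1*, chr2:153649199-153649448 (plus) for *Dnmt3b*, chr19:30030263-30030512 (plus) for *Uhrf2* and chr11:101226464-101226713 (minus) for *Ezh1*. For *Ezh2*, the stretch at chr6:47595059-47595183 (minus) is the part of its window outside annotated exons. This stretch and the *Uhrf1* window lie inside the gene coordinates of the count table, downstream of the 5′ end given there.
Uhrf1: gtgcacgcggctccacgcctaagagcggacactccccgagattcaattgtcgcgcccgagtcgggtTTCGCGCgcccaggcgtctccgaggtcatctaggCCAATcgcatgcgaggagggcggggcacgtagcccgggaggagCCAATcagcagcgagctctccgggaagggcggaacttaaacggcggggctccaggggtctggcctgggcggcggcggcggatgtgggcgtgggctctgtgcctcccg
Uhrf2: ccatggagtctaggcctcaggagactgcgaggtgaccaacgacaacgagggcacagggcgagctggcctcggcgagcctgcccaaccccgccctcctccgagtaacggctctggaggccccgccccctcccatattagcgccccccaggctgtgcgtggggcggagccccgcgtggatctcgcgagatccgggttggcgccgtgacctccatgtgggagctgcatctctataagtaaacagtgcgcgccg
Dnmt3b: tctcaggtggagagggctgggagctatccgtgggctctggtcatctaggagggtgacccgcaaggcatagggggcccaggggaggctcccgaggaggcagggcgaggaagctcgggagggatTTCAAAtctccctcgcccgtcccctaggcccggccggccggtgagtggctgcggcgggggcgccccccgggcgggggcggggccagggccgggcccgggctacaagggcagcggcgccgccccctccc
Ezh2: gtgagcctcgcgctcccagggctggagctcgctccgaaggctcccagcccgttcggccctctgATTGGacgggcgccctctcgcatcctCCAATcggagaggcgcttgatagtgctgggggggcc
Ezh1: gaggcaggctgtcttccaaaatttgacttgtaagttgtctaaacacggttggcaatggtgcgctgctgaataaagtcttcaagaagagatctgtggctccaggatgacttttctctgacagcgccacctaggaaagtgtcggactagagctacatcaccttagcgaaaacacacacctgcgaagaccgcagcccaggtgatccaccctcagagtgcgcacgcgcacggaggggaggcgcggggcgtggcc

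The *Uhrf1* window held 30 CpG dinucleotides, 2 CCAAT boxes and 1 GCGCGAA on the opposite strand. The window of its other start held 10 CpG, 1 GCGGGAA and 1 CCAAT. The *Dnmt3b* window held 21 CpG and 1 TTTGAA on the opposite strand. The whole 250-base *Ezh2* window held 23 CpG and 3 CCAAT letters, of which 2 lie in the stretch printed. The *Uhrf2* window, with 23 CpG, and the *Ezh1* window, with 14 CpG, held none of the letters searched. Across 32851 RefSeq promoters of the same length, the median was 6 CpG, and 33.8% held CCAAT, 1.28% held GCGCGAA, 3.82% held GCGGGAA and 16.0% held TTTGAA. The other windows used, those of *Dnmt1*, *Dnmt3a*, *Tet1*, *Tet2* and *Tet3*, held 1 match in all, a CCAAT of *Tet3*. The choice of start sets these values. The other *Dnmt1* windows held 3 CCAAT and 2 GCGCGAA with 26 CpG in one, largely exonic, and 4 CCAAT and 1 TTTGAA with 2 CpG in the one at the end of the gene in the count table. The E-box letters CAGCTG and CAGATG, present in 13.0% and 14.4% of all promoters, were in 0 of the 15 windows of these genes. These matches describe letters and are not evidence of binding.

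Among the maintenance enzymes, *Uhrf1* (ENSMUSG00000001228, GRCm38 chr17:56303321-56323486) fell the most. It was measured at 149.5, 147 and 153 CPM in control 1 to 3 and at 83.5, 85.3 and 83.5 CPM in mutant 1 to 3. The libraries of each group lay close together and the groups were far apart. It fell by 43.9%, a log2 fold change of -0.83 (standard error 0.05, 95% interval -0.94 to -0.73), with an adjusted p of 4.84e-06 in edgeR's quasi-likelihood test. It ranked 28 by p among the 17505 tested genes.

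*Dnmt1* (ENSMUSG00000004099, chr9:20907209-20959888), the maintenance methyltransferase, had 245, 240.0 and 227 CPM in the controls and 189.5, 171 and 184 CPM in the mutants. Every mutant library was below every control, and the decrease was 23.7% by the fit, or -0.39 ± 0.05 (SE) on the log2 scale, with an adjusted p of 0.000685 in edgeR. The change was under the fold threshold, so it was not called. *Uhrf2* (ENSMUSG00000024817, chr19:30030513-30093722), the paralog of *Uhrf1*, had 58.7, 71.4 and 78.0 CPM in the controls and 48.9, 60.9 and 52.4 CPM in the mutants. Mutant 2 lay above control 1, so the ranges were not separate. The log2 fold change of -0.36 (95% interval -0.61 to -0.11, adjusted p = 0.0397, edgeR) did not pass 0.01. It passed 0.01, still under the fold threshold, in DESeq2 (adjusted p = 0.00971) and when Y-chromosome expression was added as a covariate (0.00470).

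**Figure D2:**
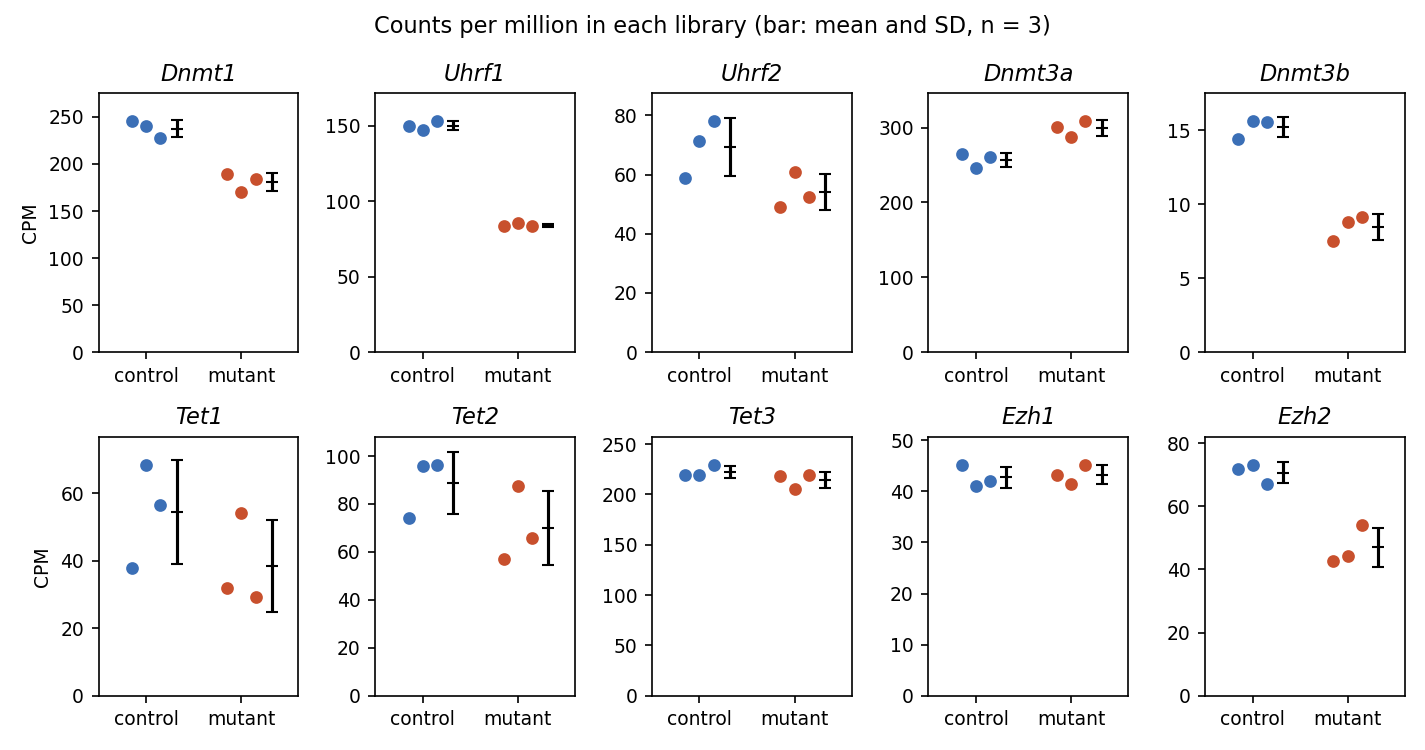
Level in CPM (y axis, from 0) of each enzyme in the 3 control (blue) and 3 mutant (orange) libraries, each point 1 library in order of its number, with mean and SD beside them (n = 3). The groups are separate for Uhrf1, Dnmt1, Dnmt3b and Ezh2, where the mutants are lower, and for Dnmt3a, where they are higher, and they overlap for the other 5.

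The de novo methyltransferases had opposite signs. *Dnmt3b* (ENSMUSG00000027478, chr2:153649450-153687730) was measured at 14.5, 15.6 and 15.6 CPM in the controls and 7.50, 8.80 and 9.16 CPM in the mutants. Its 222, 240 and 243 counts against 130, 135 and 147 were the lowest of the 10 members in either group, and the groups were separate. It fell by 44.3%, a log2 fold change of -0.84 (standard error 0.11, 95% interval -1.10 to -0.59, adjusted p = 0.000683, edgeR). *Dnmt3a* (ENSMUSG00000020661, chr12:3806007-3914443) had 264, 247 and 260.3 CPM in the controls and 301, 287 and 309 CPM in the mutants. Every mutant library was above every control, by a small margin. Its log2 fold change was 0.22 (standard error 0.05, 95% interval 0.11 to 0.33), an increase of 16.3% with an adjusted p of 0.0089 in edgeR. This p rose above 0.01 when any library other than mutant 2 was left out, with changes from 0.19 to 0.26 over all 6 such fits, so the call by p alone rests on the full set.

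The Tet enzymes gave no call in this fit. *Tet1* (ENSMUSG00000047146, chr10:62804570-62908996) had 38.0, 68.5 and 56.6 CPM in the controls and 31.95, 54.1 and 29.3 CPM in the mutants. *Tet2* (ENSMUSG00000040943, chr3:133463679-133545139) had 74.0, 95.9 and 96.4 CPM against 57.1, 87.3 and 65.7 CPM. In both genes control 1 was the lowest control, mutant 2 was the highest mutant and lay above control 1, and the spread within a group was wide. The log2 fold change was -0.50 for *Tet1* (95% interval -1.05 to 0.05, adjusted p = 0.170, edgeR). Without the filter on low counts it was called lower, just past the fold threshold (-0.50, adjusted p = 2.94e-05, edgeR). The estimate was nearly the same in both fits. What differed was the standard error, 0.25 with the filter and 0.10 without it. With 1 library left out it ran from -0.82 (without mutant 2, adjusted p = 0.0117, edgeR) to -0.30 (without control 2), also reaching -0.34 without mutant 3. It was -0.34 for *Tet2* (95% interval -0.67 to -0.01, adjusted p = 0.122, edgeR). Without mutant 2, *Tet2* was called lower at -0.52 (adjusted p = 0.00776, edgeR). Mutant 2 is the only mutant library without counts of the Y-chromosome gene *Ddx3y*. *Tet1* and *Tet2* followed that division of the libraries, described below. The fits without mutant 2 are therefore unbalanced for it, and their larger changes cannot be told apart from it. *Tet3* (ENSMUSG00000034832, chr6:83362373-83459084), the most abundant Tet, had 219.7, 219 and 229.6 CPM in the controls and 219, 205 and 219 CPM in the mutants. These groups overlapped at nearly the same level, and the 95% interval of the log2 fold change, -0.16 to 0.05, limits any change to a small one (adjusted p = 0.417, edgeR).

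The EZH enzymes differed from each other. *Ezh2* (ENSMUSG00000029687, chr6:47530139-47595341) was measured at 71.9, 73.2 and 67.0 CPM in the controls and 42.7, 44.1 and 54.1 CPM in the mutants. The groups were separate, with mutant 3 above the other mutants. It fell by 33.5%, a log2 fold change of -0.59 (standard error 0.09, 95% interval -0.79 to -0.39, adjusted p = 0.00137, edgeR). *Ezh1* (ENSMUSG00000006920, chr11:101191115-101226463) had 45.1, 41.1 and 42.1 CPM in the controls and 43.2, 41.4 and 45.2 CPM in the mutants. The groups overlapped fully, with a log2 fold change of 0.02 (95% interval -0.15 to 0.18, adjusted p = 0.890, edgeR) whose sign differed in 3 of 15 other fits. Genes on the opposite strand overlap several of these loci, and whether counting used strand is not given in the sources used here. The largest such gene, *B230319C09Rik* opposite *Tet3*, had at most 18 counts in any library.

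The unequal changes were compared as ratios of FPKM, a level per length of transcript, within each library, which do not depend on the scaling between libraries. The *Ezh2* to *Ezh1* ratio was 1.77, 1.98 and 1.77 in the controls and 1.10, 1.19 and 1.33 in the mutants, a log2 difference of -0.61. The *Uhrf1* to *Uhrf2* ratio was 5.14, 4.15 and 3.95 against 3.44, 2.82 and 3.21, a log2 difference of -0.48. In both pairs the mutant ratios were all below the control ratios. The *Dnmt1* to *Dnmt3a* ratio went from 1.97 to 2.19 in the controls to 1.34 to 1.42 in the mutants, a log2 difference of -0.61. The *Dnmt3b* to *Dnmt3a* ratio was 0.178, 0.206 and 0.195 against 0.0812, 0.0998 and 0.0967, a log2 difference of -1.07 and the largest of the 6 ratios compared. These 4 ratios were separate between the groups. Each reached p = 0.1 in a two-sided exact permutation test, the smallest that 3 libraries against 3 allow, and 0.15 after Benjamini-Hochberg adjustment over the 6 ratios. The *Tet1* to *Tet3* and *Tet2* to *Tet3* ratios overlapped between the groups, with log2 differences of -0.46 and -0.30 (p = 0.3 each, exact permutation test). With 1 library left out these ran from -0.76 (without mutant 2) to -0.26 (without control 2) and from -0.50 (without mutant 2) to -0.15 (without mutant 1). The *Tet1* ratio also reached -0.69 without control 1 and -0.27 without mutant 3.

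**Figure D3:**
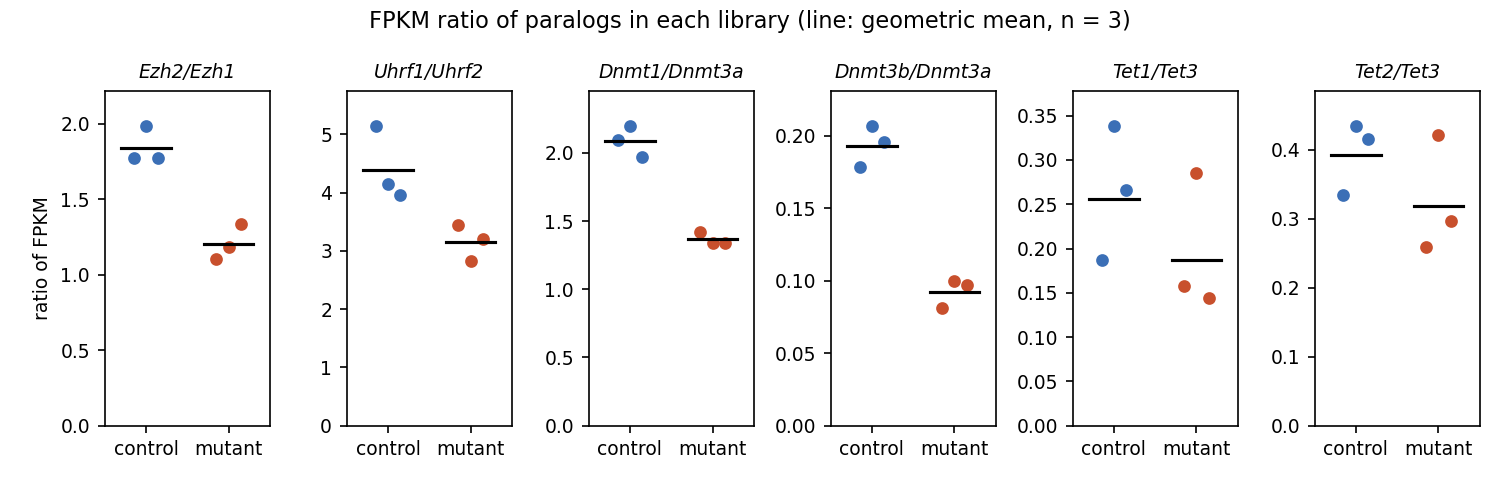
Ratio of FPKM of the named pairs (y axis, linear from 0, own scale per panel) in each of the 3 control (blue) and 3 mutant (orange) libraries, with the geometric mean as a line. The mutant ratios lie below all control ratios for Ezh2/Ezh1, Uhrf1/Uhrf2, Dnmt1/Dnmt3a and Dnmt3b/Dnmt3a, and the groups overlap for both Tet ratios.

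By level per length, *Uhrf1* and *Dnmt1* were the most abundant members in both groups, and they changed places. In the controls *Uhrf1* stood at 34.9 ± 0.691 FPKM and *Dnmt1* at 31.9 ± 1.24 FPKM (SD, n = 3). In the mutants *Dnmt1* stood at 24.4 ± 1.43 FPKM and *Uhrf1* at 19.6 ± 0.139 FPKM, and the ranges of the 2 genes did not overlap in either group. The order of the other 8 was the same in both groups. In the controls it ran from *Dnmt3a* (15.3 ± 0.544 FPKM) through *Tet3* (13.2 ± 0.353), *Ezh2* (10.5 ± 0.480), *Uhrf2* (8.01 ± 1.14), *Ezh1* (5.70 ± 0.272), *Tet2* (5.22 ± 0.753) and *Tet1* (3.49 ± 0.989) to *Dnmt3b* (2.96 ± 0.132). Neighbours from *Ezh1* down to *Dnmt3b* overlapped in range in the controls, so their order is not settled beyond the spread. In the mutants *Dnmt3a* had 17.9 ± 0.727 FPKM, *Ezh2* 7.003 ± 0.940, *Uhrf2* 6.26 ± 0.681, *Ezh1* 5.79 ± 0.277 and *Dnmt3b* 1.65 ± 0.167. Here *Ezh2* overlapped *Uhrf2*, *Uhrf2* overlapped *Ezh1*, and *Tet2* overlapped *Tet1*, whereas *Dnmt3b* was below *Tet1* in every library pair.

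Since genes of cycling cells were lower in the mutants, each member was also set against the median log2 CPM of the 20 cycling genes in the same library, which fell by 0.58. Relative to that median, *Ezh2* moved by -0.02, *Dnmt3b* by -0.27 and *Dnmt1* by 0.18 on the log2 scale, and their groups overlapped. *Uhrf1* stayed lower, by -0.26, with no overlap. *Dnmt3a*, *Ezh1* and *Tet3* were higher by 0.79, 0.59 and 0.52 with no overlap, while *Uhrf2*, *Tet2* and *Tet1* moved by 0.22, 0.22 and 0.06 with overlap. On this scale a gene with no change of its own stands higher by 0.58. The values of *Ezh1* and *Tet3*, whose own changes were 0.02 and -0.06, therefore restate the fall of the list. The share of all tested genes that separate on this scale was not computed. The value depends on the statistic and on the list. The median of the log2 fold changes of the same 20 genes was -0.73, a larger fall than that of their median level. Beside it, the log2 fold changes of *Uhrf1*, *Dnmt3b* and *Ezh2* were -0.83, -0.84 and -0.59. Without *Pcna* and the Mcm helicase genes, *Uhrf1* stood at -0.03, *Dnmt3b* at -0.04, *Dnmt1* at 0.41, *Ezh2* at 0.21, *Tet1* at 0.29 and *Tet2* at 0.45. With 1 library left out, *Ezh2* ran from -0.18 (without mutant 3) to 0.07 (without mutant 1), *Tet1* from -0.18 (without mutant 2) to 0.26 (without control 2) and *Dnmt3b* from -0.38 (without mutant 3) to -0.16 (without mutant 1). *Tet1* was also negative without control 1, and *Ezh2* positive without control 2 or mutant 2. *Tet2* ran from 0.08 (without mutant 2) to 0.38 (without mutant 1), with 0.09 without control 1, and *Dnmt1* from 0.12 (without mutant 3) to 0.26 (without mutant 2). The sign of *Ezh2* and *Tet1* relative to the cycling genes is therefore not settled. These are descriptions with no test.

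The tested genes whose log2 CPM across the 6 libraries lay closest to a called member were found among 16261 candidates, by root mean square distance after centring on the control mean. For *Uhrf1* they were *Mcm6* (0.029), a subunit of the replicative helicase, *Btbd11* (0.030) and *Lbr* (0.033), the lamin B receptor. For *Dnmt3b* they were *Ccnd2* (0.050), a D-type cyclin, *Rad54l* (0.053), a recombination repair gene, and *Rftn1* (0.054). For *Ezh2* they were *Cdca4* (0.021), *Hmgn2* (0.065), a nucleosome-binding protein, and *Ggt5* (0.066).

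Partners of the enzymes were read from 7 lists of 75 genes, of which 73 were tested. In all, 10 were called lower and 1 higher, beside 3.63% and 3.03% of all tested genes, and the median log2 fold change was -0.19. Genes below that were not called are named after their values were seen. Of 8 tested cofactors of DNA methylation, 4 were called lower and 0 higher, all 8 were lower in every mutant library than in every control, and the median was -0.64, beside 3.63% called lower and 20.1% separate in that direction over all tested genes. *Pclaf*, the PCNA-associated factor that helps load Dnmt1, went from 96.5 ± 2.78 CPM in the controls to 42.9 ± 1.14 CPM in the mutants (SD, n = 3; log2 -1.17, adjusted p = 2.01e-06, edgeR). *Hells*, a chromatin remodeller needed for DNA methylation, went from 60.6 ± 4.07 to 34.2 ± 3.94 CPM (-0.83), and its activator *Cdca7* from 48.7 ± 4.29 to 23.5 ± 2.30 CPM (-1.05). *Cdca7l*, the paralog of *Cdca7*, changed by -1.11. *Pcna* (-0.46), *Lig1* (-0.45) and *Usp7* (-0.27) passed the p threshold but not the fold threshold. *Zbtb24* (-0.27, adjusted p = 0.0416, edgeR) passed neither. *Dnmt3l*, the partner of the de novo enzymes, did not pass the filter on low counts. *Pcna* is also on the cycling list.

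Over all tested genes 3.63% were called lower and 3.03% higher, and the counts of this paragraph come from short lists. Of 10 methyl-CpG readers, 1 was called lower and 0 higher, with a median of -0.10. The called reader was *Mbd4*, which is also a DNA glycosylase, from 16.6 ± 2.17 to 10.1 ± 0.905 CPM (-0.72, adjusted p = 0.00258, edgeR). Of 14 genes for removal of oxidised bases and repair, 2 were called lower and 1 higher, with a median of -0.14. The uracil glycosylase *Ung* changed by -0.93 and the glycosylase *Neil3* by -1.07. *Gadd45g*, of the stress-response Gadd45 family, rose from 28.1 ± 1.43 to 41.6 ± 3.79 CPM (0.57, adjusted p = 0.00149, edgeR). *Tdg*, the glycosylase that removes the products of Tet enzymes, had 109.7, 98.2 and 155 CPM against 155, 146 and 144 CPM and a change of 0.29 (adjusted p = 0.150, edgeR), with overlap.

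Of 11 tested PRC2 subunits other than the EZH enzymes, 0 were called in either direction by edgeR, DESeq2 or limma, and the median was -0.35. Their log2 fold changes in edgeR ran from -1.01 to 0.25, so the lack of calls does not mean that all changes were small. At an unadjusted p under 0.05 in edgeR, 5 were lower and 1 was higher, beside 19% and 18.2% of all tested genes. *Suz12* (-0.36, adjusted p = 0.00280) and *Rbbp4* (-0.35, adjusted p = 0.00171), both of the core, passed the p threshold alone in edgeR, and *Eed*, the third core partner, stood at -0.45 (adjusted p = 0.0120). Of 18 PRC1 subunits, 2 were called lower and 0 higher, beside 3.63% and 3.03% of all tested genes, with a median of -0.17. These were *Phc2* (-0.63) and *Cbx2* (-0.60), which binds methylated lysine 27 of histone H3. *Kdm6a* and *Kdm6b*, which remove that mark, were not called (-0.52 and -0.14), also by DESeq2 or limma, with 1 of them at an unadjusted p under 0.05 in edgeR. *Kdm6a* lies on the X chromosome and had 43.7, 78.8 and 72.9 CPM in the controls and 37.0, 67.8 and 31.5 CPM in the mutants, low in the same 3 libraries as *Tet1*. Of 10 genes of histone H3 lysine 9 methylation, 1 was called lower and 0 higher, beside the same shares of all tested genes, with a median of -0.23. This was *Suv39h2*, a methyltransferase (-0.68, adjusted p = 0.00498, edgeR). DESeq2 also called 1 gene lower in this list and 1 among the readers, and limma on log2(FPKM + 1) called 0 in either.

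**Figure D4:**
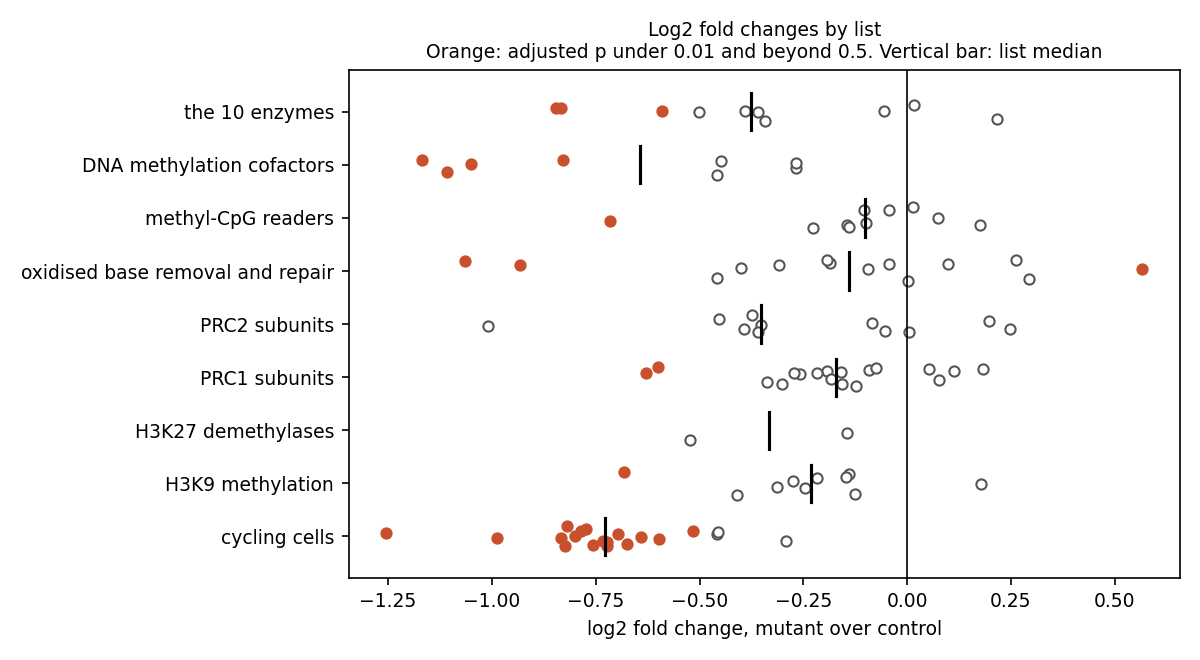
Log2 fold change, mutant over control, of each tested gene (x axis) in the 10 enzymes, the 7 lists of partners and the cycling cell list (rows). Orange points were called and vertical bars are list medians. The cofactors of DNA methylation have the lowest median of the 7 partner lists (-0.64), near that of the cycling genes (-0.73), and Gadd45g is the only orange point to the right of 0.

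The spread of *Tet1*, *Tet2* and *Uhrf2* within groups followed a second division of the libraries. The study used both sexes. The Y-chromosome gene *Ddx3y* had 1451, 1237 and 1101 counts in control 1, mutant 1 and mutant 3 and 0 counts in the other 3 libraries, where *Xist* was at 1983 CPM or above. *Tet1*, *Tet2* and *Uhrf2* were lower in all 3 libraries with *Ddx3y* counts than in all 3 without, as were 8% of all tested genes. *Ezh1* was higher there, as were 909 of the 17505 tested genes. With Y-chromosome expression added as a covariate, the difference between these libraries was -0.76 for *Tet1*, -0.43 for *Tet2* and -0.30 for *Uhrf2* on the log2 scale, with adjusted p of 1.7e-05, 0.000487 and 0.0108 for the covariate in edgeR. For *Ezh1* the adjusted p of the covariate was 0.581 in edgeR. The covariate passed an adjusted p of 0.01 in 541 genes (3.09%), of which 497 were on autosomes, as all 10 members are. The labels give neither sex nor batch, so sex and any other property that these libraries share cannot be told apart.

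**Figure D5:**
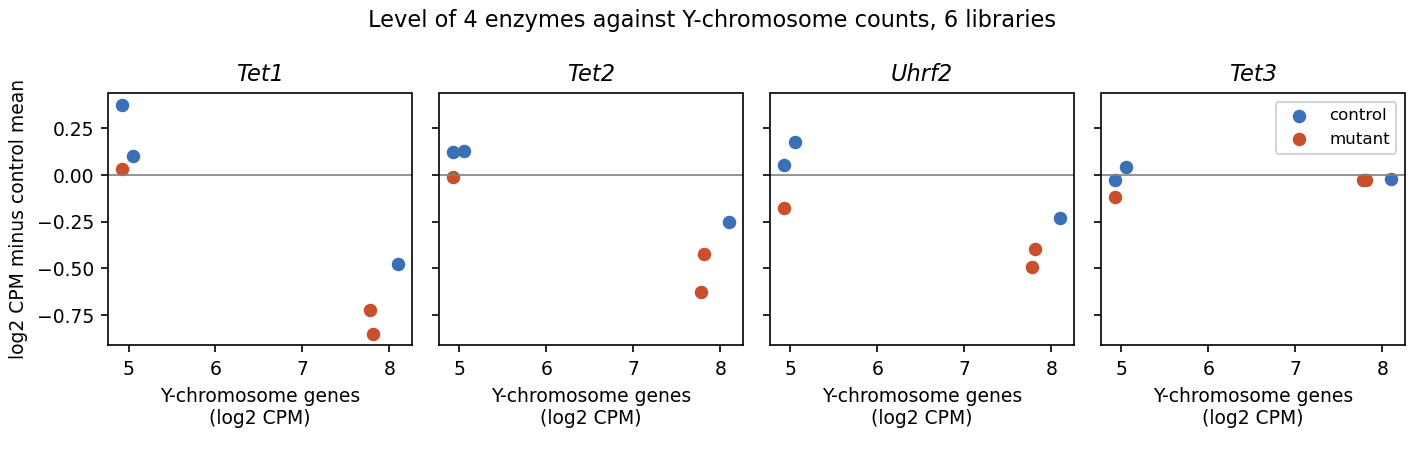
Level of 4 enzymes (y axis, log2 CPM minus the control mean) against the summed level of 8 Y-chromosome genes (x axis, log2 CPM) in 3 control (blue) and 3 mutant (orange) libraries. Tet1, Tet2 and Uhrf2 are lower in the 3 libraries at the right, and Tet3, drawn for contrast, is not.

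Within both kinds of library the mutants remained below the controls for these genes, with no test since a kind holds 1 or 2 libraries of a group. The log2 difference with *Ddx3y* counts and without was -0.31 and -0.20 for *Tet1*, -0.27 and -0.14 for *Tet2*, and -0.21 and -0.29 for *Uhrf2*. For the called members it was -0.84 and -0.81 (*Uhrf1*), -0.80 and -0.83 (*Dnmt3b*) and -0.58 and -0.67 (*Ezh2*). It was -0.40 and -0.45 for *Dnmt1* and 0.20 and 0.18 for *Dnmt3a*. With the covariate, the change of *Tet1* was -0.30 (adjusted p = 0.0104, edgeR) and that of *Tet2* -0.23 (adjusted p = 0.0135, edgeR). Those of *Uhrf1*, *Dnmt3b* and *Ezh2* were -0.83, -0.82 and -0.61, and all 3 were called.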

How the data were processed

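Bulk poly(A) mRNA of 6 cerebella libraries at postnatal day 1 was analysed, 3 labelled control and 3 labelled mutant. Per the study's methods, the authors trimmed reads and aligned them to mm10, and the submitters' processing notes name HISAT2 2.0.5 and featureCounts 1.5.0-p3. The authors deposited unnormalized counts per gene, and FPKM values that they computed from counts and gene length. Strand setting and annotation release are not given in the sources used here.

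Counts were fitted by edgeR 4.0.16 under R 4.3.3, with filterByExpr, TMM scaling, glmQLFit and glmQLFTest, giving fold changes, standard errors and 95% intervals. Genes were called where the Benjamini-Hochberg adjusted p was under 0.01 and the log2 change passed 0.5 in size. CPM were scaled to TMM library totals, which lay between 15391854 and 17178478 before scaling. The common dispersion was 0.0105. Intervals cover the spread between libraries. Libraries of a group were not copies of each other (chi-square per gene 3.64 to 10.1). Alternatives were DESeq2 1.42.0, limma 3.58.1 on log2(FPKM + 1) and log2(FPKM + 0.1), other scalings, filters and thresholds, a replicate block, the Y-chromosome level as covariate and each library left out. Differences within libraries with and without Y-chromosome counts were chosen after seeing the data. On simulated counts with 200 genes changed by a log2 fold of 1, edgeR recovered 141, and 117 of the 118 with a mean of at least 10 CPM, with 2 false calls among 17262 genes tested.

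The members and the gene lists were chosen with earlier results of these data known. Named genes were all members, the label check, up to 4 called genes of a list, and for each called member the 3 genes closest in pattern. Promoters came from the RefSeq table on GRCm38.p6, in which all 10 genes matched with 15 starts. A protein comparison was planned, and protein sequences were not used here.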

Additional observations from a re-analysis of the deposited data

How the results depend on the processing

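*Uhrf1*, *Dnmt3b* and *Ezh2* were called lower in all 15 other fits, with log2 fold changes of -0.85 to -0.80, -0.90 to -0.58 and -0.70 to -0.52. *Dnmt1* passed the p threshold in all 15 (-0.42 to -0.34) and the fold threshold in none. No result past a threshold changed sign. Signs near 0 did turn, those of *Ezh1* in 3 of 15 fits and of *Ezh2* and *Tet1* relative to the cycling genes. At an adjusted p under 0.05 with no fold threshold, 5 members were lower and 1 higher, among 2252 and 2136 of all genes and 28 lower partners. When the fold change was tested against 0.5 itself (glmTreat), 1 member was lower, with 145 lower and 30 higher genes in all and 4 lower and 0 higher partners. Limma-trend on log2(FPKM + 1) called 330 genes higher. Leaving out each library gave 349 (without mutant 3) to 569 higher genes and 1 to 2 higher partners, 2 without control 3.

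*Dnmt3a* no longer passed the p threshold in limma-trend with a pseudocount of 1 (0.21) or 0.1 (0.22) on FPKM, and ran from 0.19 to 0.26 with a library left out. Without the low count filter *Uhrf2* (-0.36), *Tet1* (-0.50) and *Tet2* (-0.34) passed it, with smaller standard errors than in the main fit. *Tet1* also passed the fold threshold there, which made 4 members called lower. Leaving out mutant 2 also made 4, and there the added member was *Tet2* (-0.52). *Uhrf2* also passed p in DESeq2 (-0.35) and with the Y-chromosome covariate (-0.27). *Tet1* ran from -0.82 to -0.30 and *Tet2* from -0.52 to -0.21 with a library left out, and *Tet3* stood at -0.13 within libraries without Y-chromosome counts. The cause was not tested. Relative to cycling genes without *Pcna* and Mcm genes, *Dnmt1* stood at 0.41, *Uhrf1* at -0.028, *Uhrf2* at 0.45, *Dnmt3a* at 1.02, *Dnmt3b* at -0.041, *Tet3* at 0.75 and *Ezh1* at 0.82.

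The correlations of same-numbered deviations were 0.24, 0.26 and -0.17. Libraries numbered 1 and 2 match across the groups in the presence of *Ddx3y* counts, and those numbered 3 do not. The correlations carry that division, so they cannot decide whether the replicate numbers pair the libraries. With the replicate number as a block, *Uhrf2* (-0.36, adjusted p = 0.00641, edgeR) and *Tet2* (-0.35, adjusted p = 0.00687, edgeR) passed the p threshold, and 3 members were called lower and 0 higher as before, among 696 lower and 561 higher genes. Not every library matched its own number best. The median change of all genes was -0.0011 with DESeq2's size factors and 0.0107 with library size alone. Every member had at least 130 counts in each library, and its values are not near the limit of detection.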
